A study of Homo sapiens with 10 samples.

Results

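Regions enriched for H3K9me3 within 5 Mb of the centromeres of chromosomes 1 to 22 were described after knockdown of ERH in BJ, a line of human foreskin fibroblasts. A region belonged to this set when its row carried the running number 1 and its midpoint lay within 5 Mb of the centre of the centromere of its chromosome (GRCh38), so that position alone, and no measured value, chose the members. This gave 798 of the 10361 rows numbered 1 on chromosomes 1 to 22, in a list of 10536 rows. They lay in 22 windows of 10 Mb, 1 per chromosome. Just inside the limit lay regions at 4.99 and 5.00 Mb from their centres, on chromosomes 13 and 15, of 2469 and 6976 bp. Just outside it lay regions at 5.00 and 5.02 Mb, on chromosomes 22 and 19, of 2613 and 3965 bp.

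The study profiled H3K9me3 by CUT&RUN, in which an antibody directs a nuclease to its target and the released DNA is sequenced, in 3 samples with ERH siRNA (siERH) and 3 with control siRNA (siControl). SOX2 was profiled in 2 and 2 further samples after infection with a Sendai virus for OCT4, SOX2, KLF4 and c-MYC. The ERH siRNA was given at 5 nM in 2 rounds set 3 days apart, to 1 cell line, and the titles of the H3K9me3 samples name no virus. The list used here is shared by the 3 siERH H3K9me3 samples, and the other groups were not analysed here. It holds no values per sample and no siControl values, so no change with ERH is reported, no value has a spread between replicates, and no test between groups was made. The depth is unknown, and neither the level of ERH nor the identity of the cells can be checked in a list of H3K9me3 regions.

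H3K9me3 is written by the SUV39H and SETDB1 methyltransferases and read by HP1 proteins, and it marks constitutive heterochromatin. Around human centromeres it lies on satellite repeats and on the duplicated, gene-poor sequence that flanks them, and at several chromosomes the first genes on the arms are clusters of KRAB zinc finger genes, which are themselves known carriers of H3K9me3. In GRCh38 the centromeres themselves are modelled arrays of alpha satellite, a repeat to which short reads are hard to place. ERH is a small conserved protein whose fission yeast counterpart takes part in forming heterochromatin at meiotic genes.

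The promoters of protein-coding genes and the microRNAs that lay wholly inside a member are shown first, since they give the sequence under the mark at short annotated elements. Promoter sequences were taken from RefSeq (GRCh38.p14), where 586 of the 742 protein-coding genes of the windows had an entry. A promoter window of 300 bases lay entirely inside a region for 4 of these genes, against 0.146% of all autosomal protein-coding genes with an entry. The 4 were ZNF117, ZNF479 and ZNF679, C2H2 zinc finger genes of chromosome 7, and OR4Q3, an odorant receptor gene of chromosome 14. The 250 bases before each start are printed on the strand of the gene, with CpG dinucleotides in capitals.
ZNF117 (chr7:64991037-64991286, minus strand): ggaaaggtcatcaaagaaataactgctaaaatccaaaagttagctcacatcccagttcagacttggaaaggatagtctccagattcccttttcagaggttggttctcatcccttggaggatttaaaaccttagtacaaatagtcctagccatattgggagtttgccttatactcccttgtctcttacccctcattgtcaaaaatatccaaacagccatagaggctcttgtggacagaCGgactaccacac
ZNF479 (chr7:57139865-57140114, minus strand): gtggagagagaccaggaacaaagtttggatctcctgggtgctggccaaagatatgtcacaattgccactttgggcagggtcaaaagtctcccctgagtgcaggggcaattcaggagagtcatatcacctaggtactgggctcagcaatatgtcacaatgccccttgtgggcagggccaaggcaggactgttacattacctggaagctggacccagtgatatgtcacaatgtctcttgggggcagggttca
ZNF679 (chr7:64228224-64228473, plus strand): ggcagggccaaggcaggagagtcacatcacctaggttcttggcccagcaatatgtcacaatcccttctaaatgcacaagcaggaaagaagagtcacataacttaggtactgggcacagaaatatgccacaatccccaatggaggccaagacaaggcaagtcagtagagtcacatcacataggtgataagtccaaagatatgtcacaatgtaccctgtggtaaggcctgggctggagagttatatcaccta
OR4Q3 (chr14:19743321-19743570, plus strand): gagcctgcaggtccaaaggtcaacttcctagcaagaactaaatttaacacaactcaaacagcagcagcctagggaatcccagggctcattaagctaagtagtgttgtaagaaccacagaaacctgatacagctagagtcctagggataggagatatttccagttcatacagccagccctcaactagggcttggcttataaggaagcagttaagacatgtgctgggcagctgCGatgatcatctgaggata

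The shown stretches held 1 CpG each for ZNF117 and OR4Q3 and none for ZNF479 and ZNF679. Over the full 300 bases the 4 promoters held 2, 1, 0 and 1 CpG in the order printed, whereas the 770 promoter windows of protein-coding genes near centromeres had a median of 16.5. Of those 770 windows, 18.7% held at most 2 CpG. The sequence shown for ZNF117 also lay within the annotated bodies of ERV3-1 (64990356 to 65006687) and ERV3-1-ZNF117 (64971776 to 65006746). The longest stretch standing at least 2 times in each of at least 2 of the 4 shown sequences was ATATGTCACAAT. It stood 3 times before ZNF479 and 2 times before ZNF679, and on either strand it was found in 0.0949% of the 33725 autosomal promoter windows. It was looked for after the sequences had been read, and no other motif was searched. The 0.0949% includes the 2 promoters it was taken from, and a match is a description of the sequence.

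Of 65 microRNA genes in the windows, 4 were overlapped, each over its whole length, or 6.15% (Wilson 95% interval 2.42 to 14.8%) against 0.521% on the rest and 0.725% of all autosomal microRNA genes. Their mature sequences (RefSeq, GRCh38.p14) are printed with the seed, bases 2 to 8, in capitals.
hsa-miR-1299 (chr9:40929010-40929031, minus strand): uUCUGGAAuucugugugaggga
hsa-miR-9901 (chr16:34163601-34163621, plus strand): cGGUCGCCgcgguucgccgcc
hsa-miR-3648 (chr21:8987026-8987046, plus strand): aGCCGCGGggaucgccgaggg
hsa-miR-10396a-5p (chr21:8987617-8987635, plus strand): gGCGGGGCucggagccggg
hsa-miR-10396a-3p (chr21:8987645-8987665, plus strand): gGCCCCGGgcccucgaccggg

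The 5 mature sequences had 5 different seeds. The genes MIR3648-2 and MIR10396A lay in 1 region of chromosome 21 at 8986624 to 9000070 (13447 bp). The overlapped genes are thus not independent, although the interval above takes them to be. MIR9901 lay in a region of chromosome 16 at 34129846 to 34177550, and MIR1299 in a region of chromosome 9 at 40922326 to 40931623. The row of the MIR1299 region has an irregular place in the list, as described below. A region over a microRNA gene says nothing of whether the microRNA was made.

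Near centromeres regions were longer, whereas their number per Mb of window was close to that of the rest. The 22 windows held 3.63 regions per Mb, and their ratio to the density of the rest of the same chromosomes was 1.01 (95% exact interval 0.935 to 1.08, which counts regions as independent although they cluster). This ratio depends on what is counted: it was 1.55 (1.44 to 1.67) without stretches that lack both genes and regions, and 1.53 (1.40 to 1.67) for regions scoring at or above the median. Such stretches are chosen partly for holding no region, so removing them can only raise the density where they lie. The regions nevertheless covered 4.19% of the windows (9.23 of 220 Mb) against 1.50% of the rest. The windows thus made up 7.66% of the autosomal span and 7.70% of its regions, but 18.8% of the covered bases. Regions had a median length of 5648 bp (95% interval, from the binomial distribution, 5193 to 6124 bp) against 3466 bp on the rest (3433 to 3494 bp). The short regions were alike, with a 5th percentile of 2117 against 2078 bp, and the upper part of the range differed, with a 75th percentile of 13007 against 4670 bp and a 95th of 38935 against 8082 bp. The intervals cover sampling of regions within 1 list, and no test was made of these differences.

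Long regions were concentrated here. Of the 798 regions 255, or 32.0% (Wilson 95% interval 28.8 to 35.3%), were at least 10 kb long, against 2.82% on the rest and 5.07% of all autosomal regions. These 255 were 48.6% of all autosomal regions of that length, and they held 73.3% of the summed length of the 798. At least 50 kb was reached by 26 regions near centromeres and by 4 elsewhere, against 0.29% of all autosomal regions. Of the 10 longest autosomal regions 8 lay near a centromere, and of the 100 longest 80 did. Regions of 2 to 5 kb, the commonest class elsewhere with 75.3%, made up 40.6% here.

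The 5 longest members lay on chromosomes 21, 12, 19 and 5. On chromosome 21, regions of 167401 bp (10324895 to 10492295) and 110932 bp (10630431 to 10741362) lay 1.59 and 1.31 Mb from the centre on the short-arm side. On chromosome 12 a region of 108741 bp (37898332 to 38007072) lay 2.45 Mb out on the long-arm side. On chromosome 19 a region of 89458 bp (27328886 to 27418343) lay 1.17 Mb out on the long-arm side, and on chromosome 5 one of 85857 bp (46228053 to 46313909) lay 2.53 Mb out on the short-arm side. In chromosomes 7 and 11, whose windows were also among the 5 most covered, the longest regions were 85146 bp (62774221 to 62859366) and 62074 bp (50751281 to 50813354). Each of these 7 regions overlapped no protein-coding gene.

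**Figure D1:**
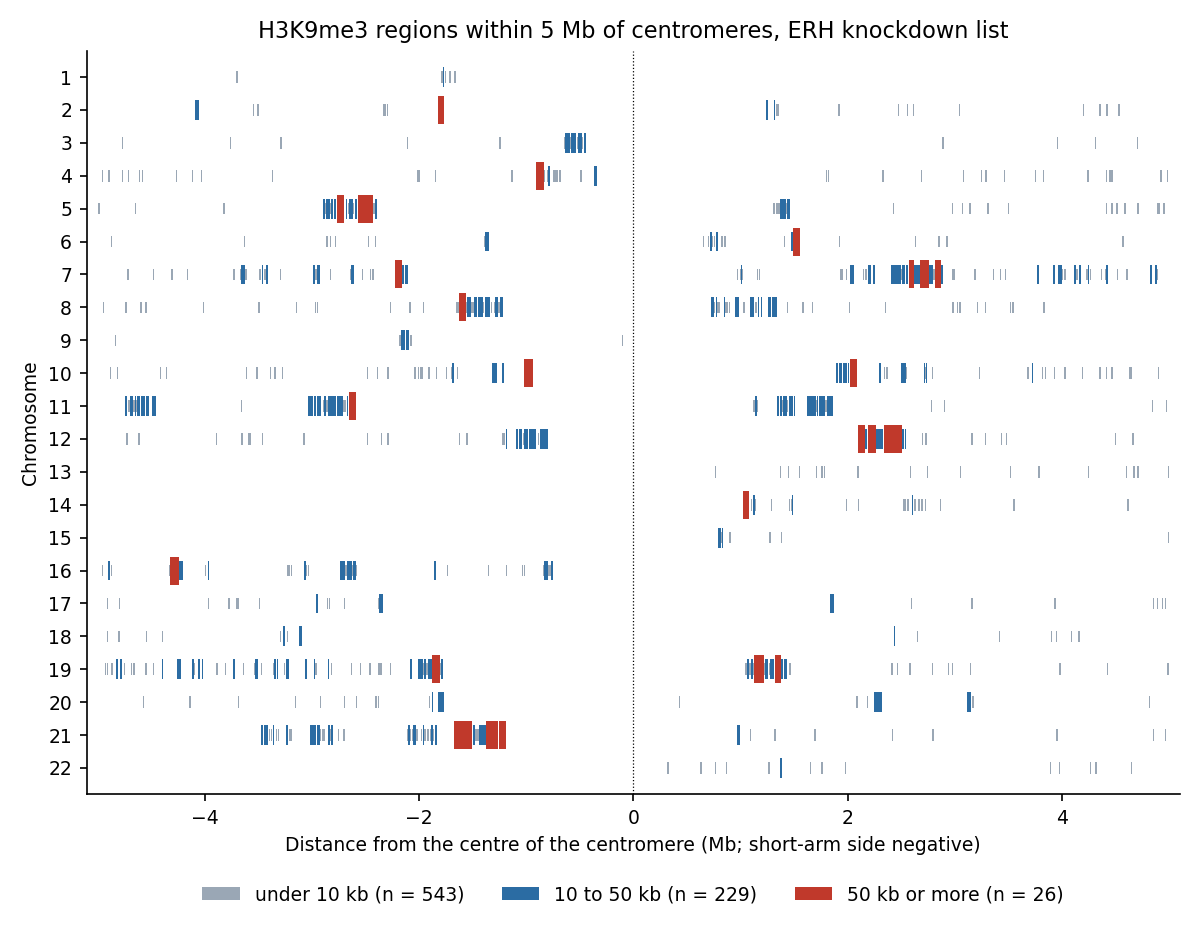
Position of the 798 regions on each chromosome, as distance from the centre of the centromere in Mb, with the short-arm side to the left. Bars show region length to scale, drawn at least 12 kb wide, and colour and height mark 3 length classes. All 26 regions of at least 50 kb stand away from the centre, and an empty stretch lies across the centre of each of the 22 chromosomes.

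The centre itself carried few regions. In each of the 22 windows the longest stretch without a member held the centre. It ran from 1.94 Mb on chromosome 8 (43983745 to 45927266) to 6.66 Mb on chromosome 1 (121743637 to 128400000), with a median of 3.52 Mb, and in 7 windows it reached the edge of the window. These stretches summed to 85.9 Mb, and 20 of the 22 touched no protein-coding gene. No table of assembly gaps or repeats was used here and the handling of reads that match several places is not given in the sources used here, so absence of the mark and absence of placeable sequence cannot be told apart there. With stretches of 1 Mb or more lacking both genes and regions removed from the denominator, the covered share of the windows was 6.68%, against 1.55% of the rest. Since only bases without regions are removed, both shares could only rise.

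Coverage of all bases of a bin was highest between 1 and 3 Mb from the centre. Bases of the stretches without a member, which lie across the centres, were counted. Absence of the mark and absence of placeable sequence cannot be told apart in them, and coverage by distance was not computed without them. Within 1 Mb there were 1.66 regions per Mb, on 14 chromosomes, covering 2.14% of bases. From 1 to 2 Mb there were 4.73 per Mb covering 6.97%, and from 2 to 3 Mb 5.11 per Mb covering 7.08%. Between 3 and 4 Mb the covered share was 2.29%, and between 4 and 5 Mb it was 2.49%. Outside the windows it was 1.32% from 5 to 7 Mb and 1.28% from 7 to 10 Mb, below the 1.60% found more than 40 Mb away. Unlike coverage, the share of regions of at least 10 kb was only a little lower within 1 Mb than at 1 to 2 Mb. It was 38.4% of the 73 regions within 1 Mb, 42.3% at 1 to 2 Mb and 37.8% at 2 to 3 Mb, and farther out it went to 16.7% at 4 to 5 Mb, 5.35% at 5 to 7 Mb and 2.49% beyond 40 Mb. The short-arm sides held 420 regions covering 5285 kb and the long-arm sides 378 regions covering 3941 kb. Single chromosomes weigh on these sums, with 875 kb from the short-arm side of chromosome 21 and 860 kb from the long-arm side of chromosome 7. In 7 windows all members lay on 1 side.

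**Figure D2:**
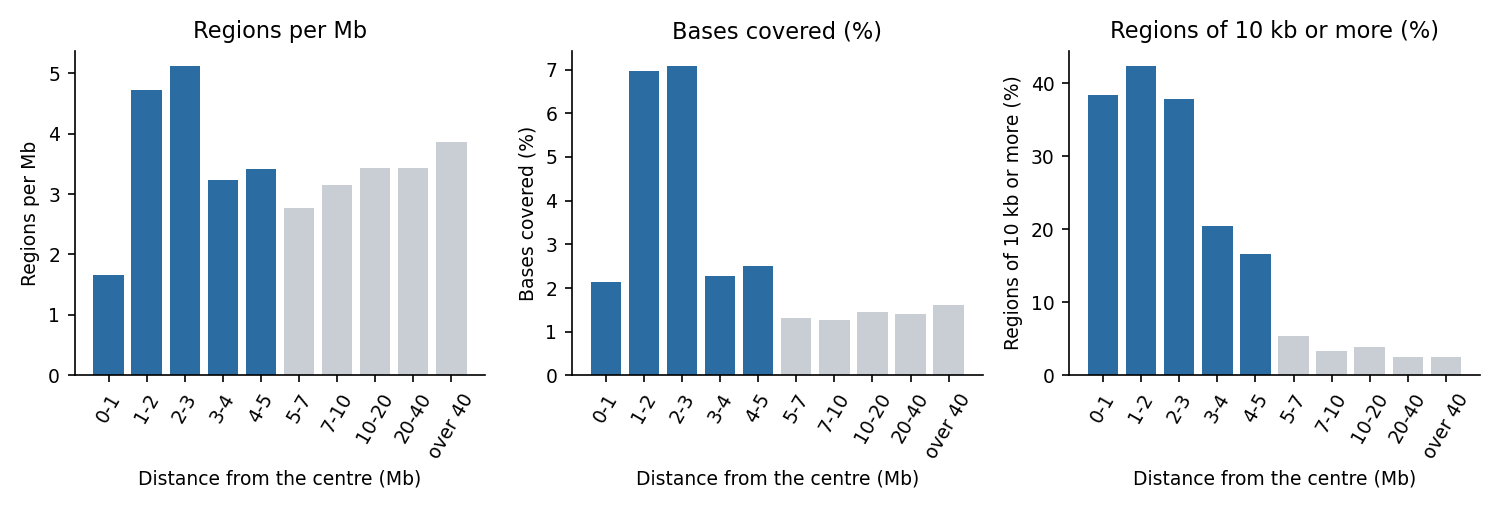
Regions per Mb, share of bases covered and share of regions of at least 10 kb, by distance from the centre in Mb over chromosomes 1 to 22, with the bins inside the windows in blue. Bins are 1 Mb wide up to 5 Mb and wider beyond, and coverage is highest from 1 to 3 Mb, at 6.97% and 7.08%. Densities and covered shares are of all bases of a bin, including stretches that lack both genes and regions.

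The chromosomes differed widely. The covered share of a window ran from 0.471% to 11.9%, with a median of 2.31%, and exceeded that of the rest of the same chromosome in 16 of 22. These shares are of the full 10 Mb, and the count of 16 depends on that denominator. Without stretches of 1 Mb or more lacking both genes and regions, 3.34 Mb remained on chromosome 1 and 4.21 Mb on chromosome 15. Shares per chromosome were not computed on what remained. Chromosome 7 had the highest share, 11.9% in 88 regions, against 1.55% of its rest. Chromosome 19 followed with 10.3% in 76 regions, although its rest was also high at 4.66%, and chromosome 11 had 9.72% in 58 regions against 1.21%. Chromosome 11 also had the highest share of long regions, 35 of 58 (60.3%), and a median length of 16040 bp. The lowest shares were 0.471% on chromosome 1 (9 regions, rest 1.32%), 0.611% on chromosome 22 (16 regions, rest 1.10%) and 0.632% on chromosome 15 (8 regions, rest 1.37%). The 6 most covered windows, those of chromosomes 7, 19, 11, 21, 12 and 8, held 402 of the 798 regions and 60.6% of the covered bases. Each chromosome gives 1 value, and chromosomes are not replicates.

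Acrocentric chromosomes, whose short arms carry ribosomal DNA and satellites, were uneven. On chromosomes 13, 14, 15 and 22 all members lay on the long-arm side, and together these 4 windows were covered over 1.01%, against 1.26% of their rest. Their longest stretch without a member reached the short-arm edge of the window. Absence of the mark and absence of placeable sequence cannot be told apart in it. The 1.01% is of the full 10 Mb per window. Without stretches of 1 Mb or more lacking both genes and regions, 4.52, 4.01, 4.21 and 6.87 Mb remained. On chromosome 21, where 7.85 Mb remained, 55 of 64 regions lay on the short-arm side. There 9.30% of the full window was covered, against 1.98% of the rest. Chromosomes 1, 9 and 16, which bear large satellite blocks on their long arms, had no member on the long-arm side. In each, the longest stretch without a member ran across the centre to the long-arm edge of the window. Absence of the mark and absence of placeable sequence cannot be told apart there. On chromosome 1 a row numbered 2 lay on that side (125169944 to 125170022), which the rule left out. The covered shares of the full windows of chromosomes 1, 9 and 16 were 0.471%, 0.949% and 4.82%.

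**Figure D3:**
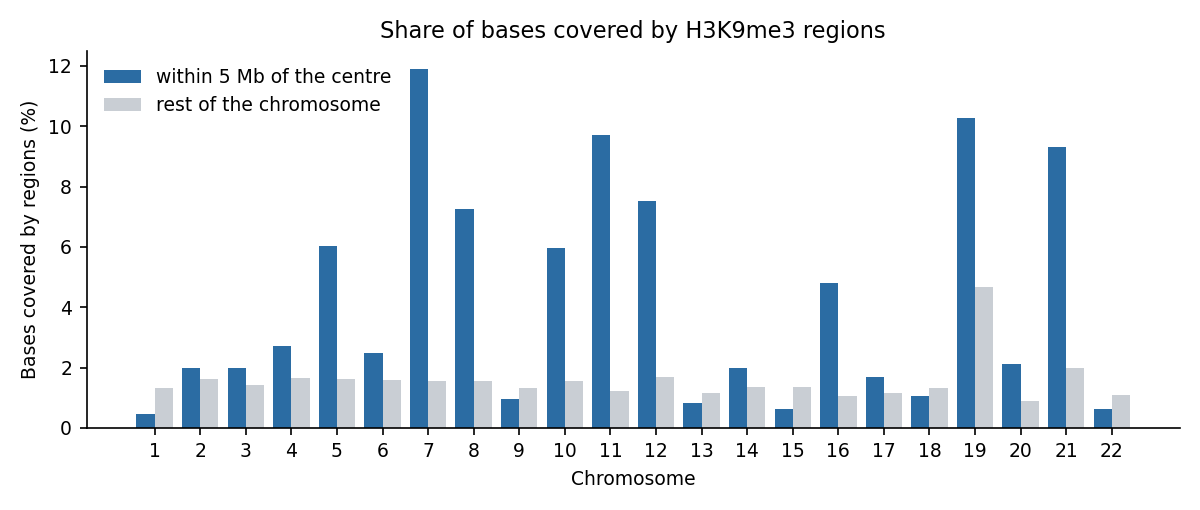
Percent of bases covered by regions within 5 Mb of the centre and on the rest of each chromosome, 1 value per bar with no replicates. The windows of chromosomes 7, 19, 11 and 21 stand highest, at 11.9%, 10.3%, 9.72% and 9.30%, and those of chromosomes 1, 9, 13, 15, 18 and 22 lie below the rest of their chromosome. Window shares are of the full 10 Mb, including stretches that lack both genes and regions.

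Neighbouring members stood closer together than regions elsewhere, and a few groups left little uncovered between them. The median gap between neighbours within a window was 23042 bp (95% interval, from the binomial distribution, 16337 to 35393 bp) against 130912 bp on the rest, and 40.5% of gaps were under 10 kb, against 9.15%. Joining members at gaps of at most 50 kb gave 352 groups, of which 226 held a single region and 36 held at least 5, with 341 of the 798 regions (42.7%). The 10 groups with the most covered bases held 37.2% of the covered bases of the set. The first of them, on chromosome 7 at 62506780 to 62994480, held 14 regions that covered 91.3% of its 488 kb and overlapped no annotated gene. The next, on chromosome 21 at 10324895 to 10814560, held 11 regions covering 90.6% of 490 kb and spanned TPTE and BAGE2. Groups on chromosome 5 (45908107 to 46405486, 17 regions, 84.3% covered), chromosome 12 (37595550 to 38046905, 10 regions, 89.9% covered) and chromosome 19 (27240875 to 27666022, 16 regions, 85.8% covered) overlapped no annotated gene.

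Each row carries the authors' score, whose unit is not given. Scores of members ran from 12689 to 48588344 with a median of 44138, against 23488 on the rest. Score rose with length in both (Spearman rho across regions 0.88 near centromeres and 0.76 elsewhere, over regions of 1 list that are not independent), so the score was divided by length. The median was 7.69 score units per base pair (95% binomial interval of the median 7.40 to 7.90) against 6.92 (6.86 to 6.97). The bulk of both sets thus lay close together, and they differed in the upper tail, with a 95th percentile of 41.2 against 11.8.

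A small number of members held most of the summed score. More than 20 score units per base pair were reached by 84 members, or 10.5% (Wilson 95% interval 8.58 to 12.8%), against 0.314% of the rest and 1.1% of all autosomal regions. The 84 were 73.7% of all such autosomal regions. Of the 84, 5 share their score with other rows, so that their score per base pair has no clear meaning. The other 79 had a median length of 12493 bp, lay on 20 chromosomes, and 67 of them overlapped no annotated gene. They held 43.4% of the summed score of the autosomal regions with a score of their own, and all members together held 53.7%.

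The highest score per base pair among members with a score of their own was 6698, in a region of 7254 bp on chromosome 1 (121736383 to 121743636), 1.66 Mb from the centre. Next were 3089 on chromosome 19 (27240875 to 27250823, 9949 bp), 1537 on chromosome 18 (20930938 to 20942555, 11618 bp), 821 on chromosome 8 (43237603 to 43242381, 4779 bp) and 705 on chromosome 10 (41818685 to 41885273, 66589 bp). Each of the 5 overlapped no annotated gene. The chromosome 1 region alone held 13.3% of the summed score of the members with a score of their own. The 5 members of highest undivided score held 44.2%. These include a region of chromosome 2 (92078831 to 92138138) in place of the one named on chromosome 8. A stack of reads from many repeat copies on 1 copy and a high level of the mark cannot be told apart in these scores.

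**Figure D4:**
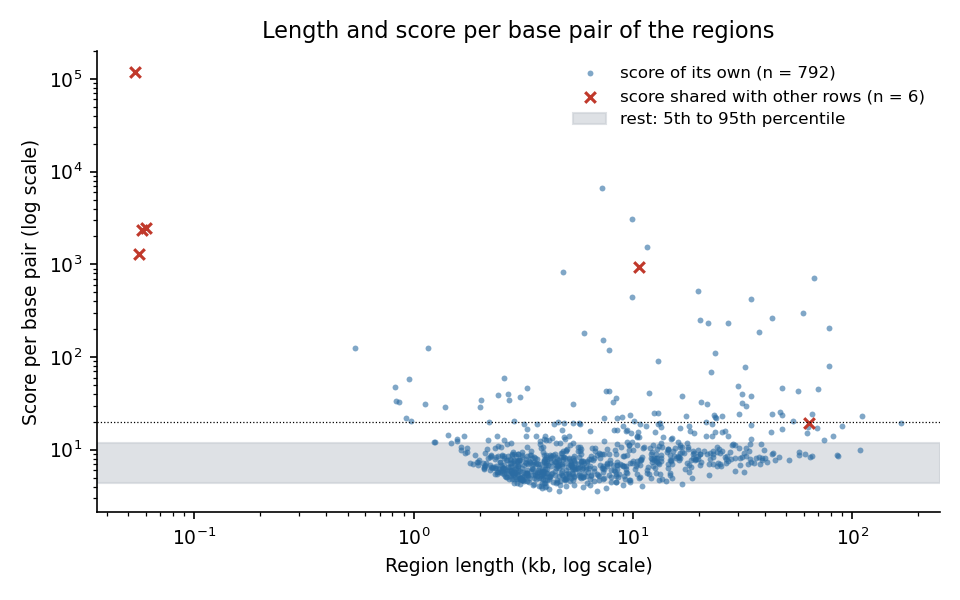
Length in kb and score per base pair of each member, both on log axes, with the 5th to 95th percentile of the rest of the autosomes as a grey band (4.34 to 11.8) and the line of 20 score units per base pair dotted. Crosses mark the 6 members whose score is shared with other rows, 4 of them under 100 bp long.

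The order of the rows bears on the placement of some members. Rows of the list ascend along each chromosome, apart from 50 of the 798 members (6.27%) and 9 of the 9563 other regions (0.0941%), which stand out of that order or among rows of another chromosome. The regions of 110932 and 66589 bp named above, on chromosomes 21 and 10, are among them, and so is the region over MIR1299. They include 6 of the 8 members of chromosome 9, 12 of the 64 of chromosome 21 and 10 of the 58 of chromosome 11. Without such rows the windows were covered over 3.82%. Whether the coordinates were converted from another build is not given in the sources used here.

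Most members lay outside genes. Of the 798 regions 506, or 63.4%, overlapped no annotated gene of RefSeq, against 49.1% on the rest, and 139, or 17.4%, overlapped a protein-coding gene, against 32.3%. Of member bases 9.05% lay within protein-coding genes, against 32.2% on the rest. The windows themselves are gene-poor, with 742 protein-coding genes in 220 Mb, against 18384 in 2654 Mb. The share of all window bases within genes was not computed, so these differences are not set apart from that of the sequence. The regions without a gene had a median length of 6001 bp and held 190 of the 255 regions of at least 10 kb. Regions over a zinc finger gene (65 regions) had a median length of 7620 bp, and those over another protein-coding gene (74 regions) one of 3804 bp, of which 4 reached 10 kb.

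Among protein-coding genes, those for C2H2 zinc finger proteins, DNA-binding factors of which many silence transposable elements through a KRAB domain, were overlapped most often. Of the 742 protein-coding genes with a midpoint in a window 94 shared at least 1 bp with a region, or 12.7% (Wilson 95% interval 10.5 to 15.3%), close to the 10.9% of all autosomal protein-coding genes. Zinc finger genes made up 46 of the 94. They were overlapped in 46 of 55 cases, or 83.6% (71.7 to 91.1%), against 51.6% (47.2 to 56.0%) on the rest and 54.8% of all autosomal zinc finger genes. The other genes of the windows were overlapped in 48 of 687 cases, or 6.99% (5.31 to 9.14%), against 9.69% (9.27 to 10.1%) on the rest. These genes stand in clusters and are not independent, and the zinc finger set was known from earlier results to carry regions.

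Chromosomes 7 and 19 held most of the zinc finger genes of the windows. On chromosome 19, 22 of 23 were overlapped, the exception being ZNF99, and on chromosome 7, 12 of 13, the exception being ZNF138. On chromosome 10, 8 of 9 were overlapped, the exception being ZNF239. The 3 exceptions were named after their values were seen. Without chromosomes 7 and 19 the count was 12 of 19, or 63.2% (Wilson 95% interval 41.0 to 80.9%), and the overlapped protein-coding genes numbered 55. The share of member bases in protein-coding genes was then 5.98%.

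The zinc finger genes covered over most of their length, counting genes from 5 kb upward, lay on chromosomes 7, 10 and 19. ZNF117 (chromosome 7, 64971772 to 64991036) was covered over 87.7% by 2 regions, and ZNF479 (57117676 to 57139864) over 66.8% by 2. ZNF735, ZNF736 and, on chromosome 10, ZNF32 were covered over 59.5%, 54.6% and 66.5%. On chromosome 19, ZNF208, ZNF724 and ZNF728 were covered over 54.2%, 51.7% and 51.7%. The same chromosome holds ZNF91, a factor known to bind SVA retrotransposons, which was covered over 22.9% by 2 regions and is named here for that role. Of the zinc finger symbols without a protein-coding type, the pseudogene ZNF209P and the antisense RNA ZNF32-AS1 were covered over 100%, the latter within ZNF32.

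Coverage grew from the start to the end of these genes. Strand was known for 41 of the 46 overlapped zinc finger genes. With the gene body split into 3 equal parts, the mean covered share was 9.68% in the opening part, 26.5% in the middle part and 51.7% in the closing part. The closing part was more covered than the opening part in 34 of the 41 and less in 5. The annotated end of the gene was covered in 23 and the start in 3. The 218 overlapped zinc finger genes of the rest showed a like course, with 8.53%, 30.9% and 60.6%, and the closing part exceeded the opening part in 83.5% of them, against 82.9% near centromeres. The 37 other overlapped genes of the windows with a known strand showed 7.50%, 9.24% and 8.75%. They include ERV3-1-ZNF117, which overlaps ZNF117. In ZNF208, ZNF735 and ZNF736, for example, the opening part was covered over 0% and the closing part over 76.1%, 100% and 83.5%. ZNF91 went the other way, with 11.5%, 57.2% and 0%.

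**Figure D5:**
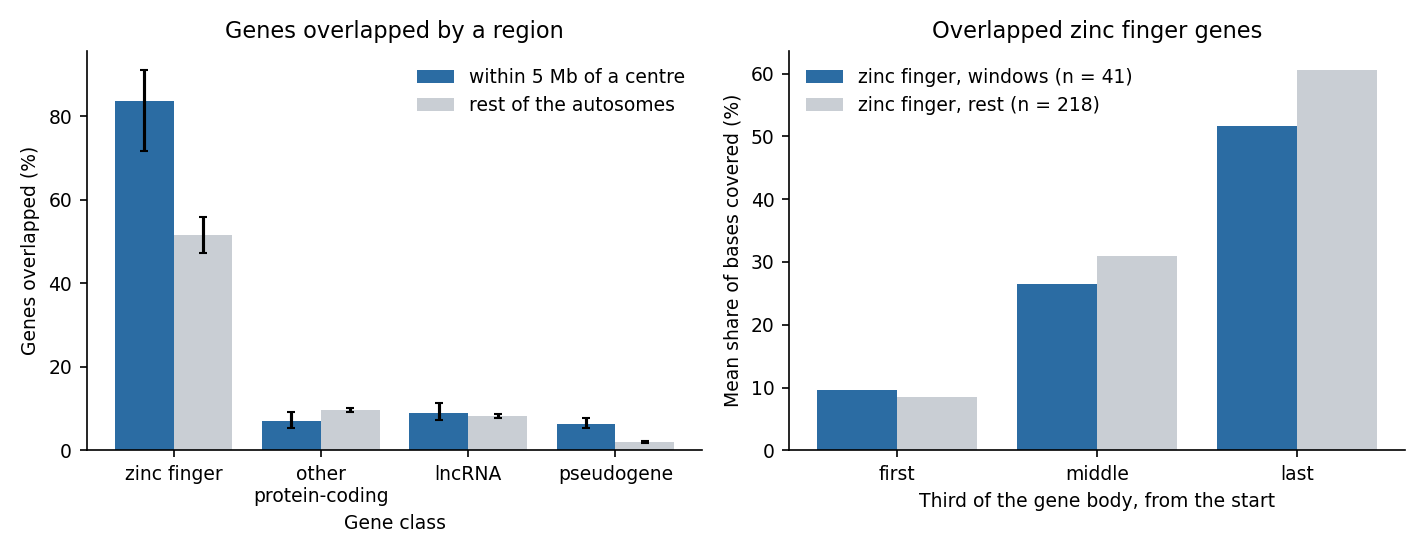
Left, percent of genes of 4 classes that share at least 1 bp with a region, within 5 Mb of a centre and on the rest of the autosomes, with Wilson 95% intervals. Right, mean percent of bases covered in the opening, middle and closing part (3 equal parts) of overlapped zinc finger genes, rising from 9.68% to 51.7% near centromeres and from 8.53% to 60.6% elsewhere.

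Genes typical of the sequence around centromeres were covered unevenly. Of all 3503 annotated genes of the windows 8.28% were overlapped, against 7.14% on the rest and 7.21% of all autosomal genes. TPTE, a testis-expressed phosphatase-like gene of chromosome 21 (10521583 to 10605716), was covered over 73.7% by 7 regions, and the neighbouring BAGE2, a transcribed pseudogene of a melanoma antigen family, over 83.6% by 2. Of the 5 TPTE and BAGE genes in the windows 4 were overlapped, against 3 of 9 on the rest, with TPTE2 on chromosome 13 covered over 4.07% and TPTEP1 on chromosome 22 over 0.714%. Of 38 FRG and DUX genes, families known from the D4Z4 repeat region of chromosome 4, 5 were overlapped (13.2%), close to the 12.8% (6 of 47) on the rest. DUX4L45, DUX4L46 and DUX4L47, pseudogenes on chromosome 16, were covered over 100% and lay in the same region as MIR9901, and FRG1BP on chromosome 20 was covered over 90.4%. TPTE2, TPTEP1, FRG1BP and DUX4L47 were named after their values were seen.

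For other families few genes were overlapped. Over all annotated genes the share was 8.28% in the windows and 7.21% on the autosomes. Counts of POTE and ANKRD genes were too small to set apart from it. The shares of odorant receptor genes and immunoglobulin variable segments lay below it, both near centromeres and on the rest. Of the 10 POTE genes, a primate ankyrin repeat family, 0 were overlapped, which allows a share of up to 30%, and of 40 genes of other primate duplication families (NBPF, SPATA31, GOLGA, FOXD4 and the like) 0 were overlapped, which allows up to 7.5%, against 2.29% (3 of 131) on the rest. ANKRD genes of duplicated sequence were overlapped in 1 of 19 cases (5.26%, against 4 of 22 on the rest), the pseudogene ANKRD30BP2 (5.89% covered), and immunoglobulin variable segments in 1 of 109 (0.917%, against 2.42% on the rest), the pseudogene IGHV1OR21-1 on chromosome 21 (100% covered). Odorant receptor genes were overlapped in 5 of 225 cases, or 2.22%, against 1.10% (7 of 639) on the rest. All 5 lay on chromosome 14, where OR4H12P and OR4K3 were covered over 100%, OR4N2 over 57.2%, OR4K1 over 29.4% and OR4Q3 over 18.9%, the last 2 named after their values were seen. On chromosome 11, whose window was covered over 9.72%, 0 of 60 protein-coding odorant receptor genes were overlapped. This allows up to 5%, against 12.7% of all protein-coding genes of the windows. These limits cover counting error only. MPHOSPH8, which encodes the H3K9me3-binding subunit of the HUSH silencing complex and was the 1 listed gene of the heterochromatin machinery in the windows, and RPL23A, the 1 listed ribosomal protein gene there, were not overlapped.

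Pseudogenes, which are frequent in duplicated sequence, were overlapped in 97 of 1512 cases, or 6.42% (Wilson 95% interval 5.29 to 7.76%), against 2.04% (1.81 to 2.30%) on the rest and 2.51% of all. For lncRNA genes the share was 9.03% (7.22 to 11.2%) against 8.25% (7.85 to 8.68%) on the rest and 8.29% of all. Several genes can lie under 1 region, so they are not independent, and the intervals cover counting only. On chromosome 7, 1 region (57148979 to 57178207) overlapped 10 annotated genes, none of them protein-coding. Many of the genes named here have near-identical copies, so the assignment of a region to 1 copy is uncertain.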

How the data were processed

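Regions came from 1 merged list of the 3 siERH H3K9me3 samples, deposited by the authors without a header and with a whole-number score per region whose unit is not named. The submitters' processing notes name Bowtie2 2.3.4.1, SAMtools 1.16.1, R 3.6.3, deepTools 3.5.0, bedtools 2.27.1 and SEACR 1.3 and the build hg38. The role of each tool, the peak threshold and how replicates were merged are not given in the sources used here. The other deposited column used, the running number, served only as the filter. Depth is unknown, which leaves the precision of each score unknown.

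Regions, coverage, gaps and overlaps of at least 1 bp with RefSeq genes (GRCh38.p14) were computed with pandas 2.3.3, numpy 2.4.6 and scipy 1.17.1 under Python 3.11.15, and plotted with matplotlib 3.10.9. The last gene or region set the end of each chromosome. A gene belonged to a window by its midpoint, and its covered share came from regions numbered 1. Interval arithmetic was tested on simulated data. Strand came from the RefSeq promoter table, whose 2692 overlapping opposite-strand pairs matched as reverse complements, with 0 that did not.

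Regions named were the 5 longest, the 5 of highest score per base pair (those with a shared score set aside), the longest in the 5 most covered windows and those at the 5 Mb limit. Genes named were the 10 protein-coding genes of at least 5 kb with the largest covered share, and the 2 most covered of each of 10 families. Members, lists and rules were chosen with earlier results of these data known. The split of gene bodies into 3 parts and the repeated promoter stretch were added after values were seen. Alternatives changed the window width, the filters on length, score and rows, the chromosomes, the denominator and the gene class.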

Additional observations from a re-analysis of the deposited data

Results flagged for a closer look

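Outside the rows numbered 1, 10 of the 17 rows with a running number above 1 had a midpoint within 5 Mb of a centre, a signal in rows that the descriptions above do not use. These 17 rows and the 6 members numbered 1 that share their scores form 6 groups, of which 5 spread over more than 1 chromosome. One score, 6455839, is carried by a member of 54 bp on chromosome 22 (16266734 to 16266787) and by rows on chromosome 16. All 6 members with a shared score were kept in the counts above. Without them the values of coverage, length and score per base pair stayed within their intervals.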

How the results depend on the processing

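Of 148 values computed under alternatives, 95 stayed within the interval of the main value or, for counts, within 1.5 times of it, and 53 did not. Of the 115 values that can be set against the rest of the autosomes, 106 kept their direction. The other 9 were all density ratios, which lay below 1, whereas the main value was 1.01. The density ratio was 0.883 with windows of 2 Mb on each side, 0.905 with 10 Mb, 0.903 without regions above 20 score units per base pair, 0.762 with regions joined within 5 kb, 0.90 without chromosomes 7 and 19, 1.53 with scores at or above the median and 1.55 without stretches that hold neither gene nor region.

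With windows of 2, 3 and 10 Mb on each side there were, by construction, 281, 506 and 1457 regions. In the same order the covered share was 4.55%, 5.40% and 2.75%, the median length 7735, 7368 and 4242 bp, the share of at least 10 kb 41.3%, 39.7% and 19.4%, the median gap 7150, 8562 and 69054 bp, and the median score per base pair 8.40, 8.16 and 7.22. The share of bases in protein-coding genes was 4.08%, 4.81% and 13.8%, with 11, 35 and 227 genes overlapped.

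With scores at or above the median, the covered share was 3.89%, the median length 8568 bp, the share of at least 10 kb 44.0%, the median gap 15305 bp and the median score per base pair 8.50. Without regions above 20 score units per base pair, the covered share was 3.42% and the median score per base pair 7.29. Joining within 5 kb gave a median gap of 76596 bp and a median score per base pair of 7.21. All annotated genes gave 17.6% of bases and 290 genes.

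The covered share was 3.90% without chromosome 19, 4.64% without the acrocentric chromosomes (median score per base pair 7.90), 4.53% without chromosomes 1, 9 and 16 and 6.68% without stretches that hold neither gene nor region. Without chromosome 19 the share of bases in protein-coding genes was 7.15%. Chosen after the data were seen, leaving out chromosomes 7 and 19 gave a covered share of 3.50%, a median length of 5174 bp, 5.98% of bases in protein-coding genes and 55 genes, and leaving out rows out of order gave 3.82%. The cause of these differences was not tested. No paired analysis was possible because the list pools the replicates of 1 group, and for the same reason no replicate could be left out.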
